A study of Mus musculus with 12 samples.

Results

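The voltage-gated potassium channel genes of the Kcna, Kcnb, Kcnc, Kcnd, Kcnf, Kcng, Kcnh, Kcns and Kcnv series and the sodium channel genes from *Scn1a* to *Scn11a* were examined in the mouse cochlea. All rows of the deposited expression table whose name has one of these stems and a number were taken, which gave 45 of 37432 genes, 35 for potassium and 10 for sodium channels. Of these 45 genes, 29 reached an FPKM of 1 in 2 or more of the 12 libraries. Among them, 6 did so in all 12, while 1 gene reached it in a single library and 15 in none.

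Most of these genes encode the pore subunit of a channel that opens when the membrane is depolarized, or a silent subunit that joins one. Sodium channels carry the upstroke of the action potential, and potassium channels repolarize the membrane and set how fast a cell can fire. In the cochlea they are best known from the spiral ganglion neurons and their myelinated axons, where they gather at initial segments, nodes and the flanking juxtaparanodes, whereas other potassium channels shape the receptor potential of hair cells.

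RNA-seq libraries were made from the apical, middle and basal turns of male mice at P14, with 2 biological repeats of each genotype and turn. The wild-type males were purchased, whereas those homozygous for 35delG, a frameshift deletion in the coding sequence of *Gjb2* that the labels also call KO, were derived by tetraploid complementation from male 35delG/35delG embryonic stem cells. They were born by cesarean section and raised by ICR foster mothers. Genotype and origin of the mice therefore cannot be told apart. The sources used here do not say how many mice or cochleae went into a library, so the p-values measure only the spread between these libraries.

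FPKM, fragment counts normalized by transcript length and by library size, were divided by a factor per library (0.917 to 1.06) and are called scaled FPKM. The read depth behind them is unknown, so that the spread between repeats, pooled over the 6 groups in the fit, is the only measure of error. The groups did not vary alike. Weights estimated from the spread, lower where it is wider, were 2.54 for wild-type apical, 0.478 for wild-type basal and 0.664 for homozygous basal libraries. The pooled fit may therefore understate the error in the basal turn. A value of 0 says only that a gene is listed at 0. Between 13729 and 14703 genes reached 1 FPKM in a library. *Gjb2* itself was present in both genotypes, with scaled FPKM of 248 and 254 in wild-type against 332 and 376 in homozygous apical libraries, 140 and 268 against 256 and 451 in the middle turn, and 434 and 256 against 126 and 58.6 in the basal turn. These values do not tell the alleles apart and do not check the labels. In the second wild-type middle library the 10 markers of central glia, cells of the brain and the central part of the nerve, summed to 58.5 scaled FPKM, but in the first to 1460. The 19 neuron markers summed to 119 in the first wild-type basal library and to 1365 in the second.

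The 45 genes differed widely in level. Averaged over the 12 libraries, *Kcna1* (31.7 scaled FPKM), *Kcna2* (23.7), *Kcnc1* (20.0) and *Kcnh2* (11.8) were among the highest. Lower levels followed for *Scn8a* at 8.27, *Kcna10* at 6.77, *Kcns1* at 6.41 and *Scn1a* at 6.07, and the median over the 29 tested genes was 1.81. *Kcna1* and *Kcna2* form the low-threshold Kv1 channels that gather beside the nodes of myelinated axons, and *Kcnc1* encodes a Kv3 subunit, which allows neurons to fire at high rates.

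The order within a library was less uniform. *Kcna1* was the highest of the 45 genes in both wild-type and both homozygous apical libraries, with 14.5% to 19.7% of their sum there. In the first wild-type basal library *Kcna10* came first instead, with 20.6% of the sum. The level of *Kcna1* divided by that of *Kcna2* lay between 1.16 and 1.65 in all libraries other than the wild-type basal ones, where it was 2.42 and 0.758.

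The 16 genes that were not tested had at most 1.19 scaled FPKM, the value of *Kcna3* in a single library. They were 3 of 8 Kv1 genes (*Kcna3*, *Kcna4* and *Kcna7*), 6 of 10 silent subunits (*Kcnf1*, *Kcng2*, *Kcng3*, *Kcns2*, *Kcnv1* and *Kcnv2*), 3 of 8 genes of the EAG, ERG and ELK subfamilies (*Kcnh1*, *Kcnh3* and *Kcnh4*) and 4 of 10 sodium channels (*Scn3a*, *Scn4a*, *Scn10a* and *Scn11a*). Both Kv2, all 4 Kv3 and all 3 Kv4 genes were tested. *Scn4a*, the sodium channel of skeletal muscle, ranged from 0.0264 to 0.253 with a median of 0.04595, and 11 other markers of skeletal muscle summed to between 1.86 and 7.09. With *Pvalb*, which neurons also express, the sum of the 12 was 21.2 to 850.4. The depth of these libraries being unknown, the low genes cannot be called absent.

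**Figure D1:**
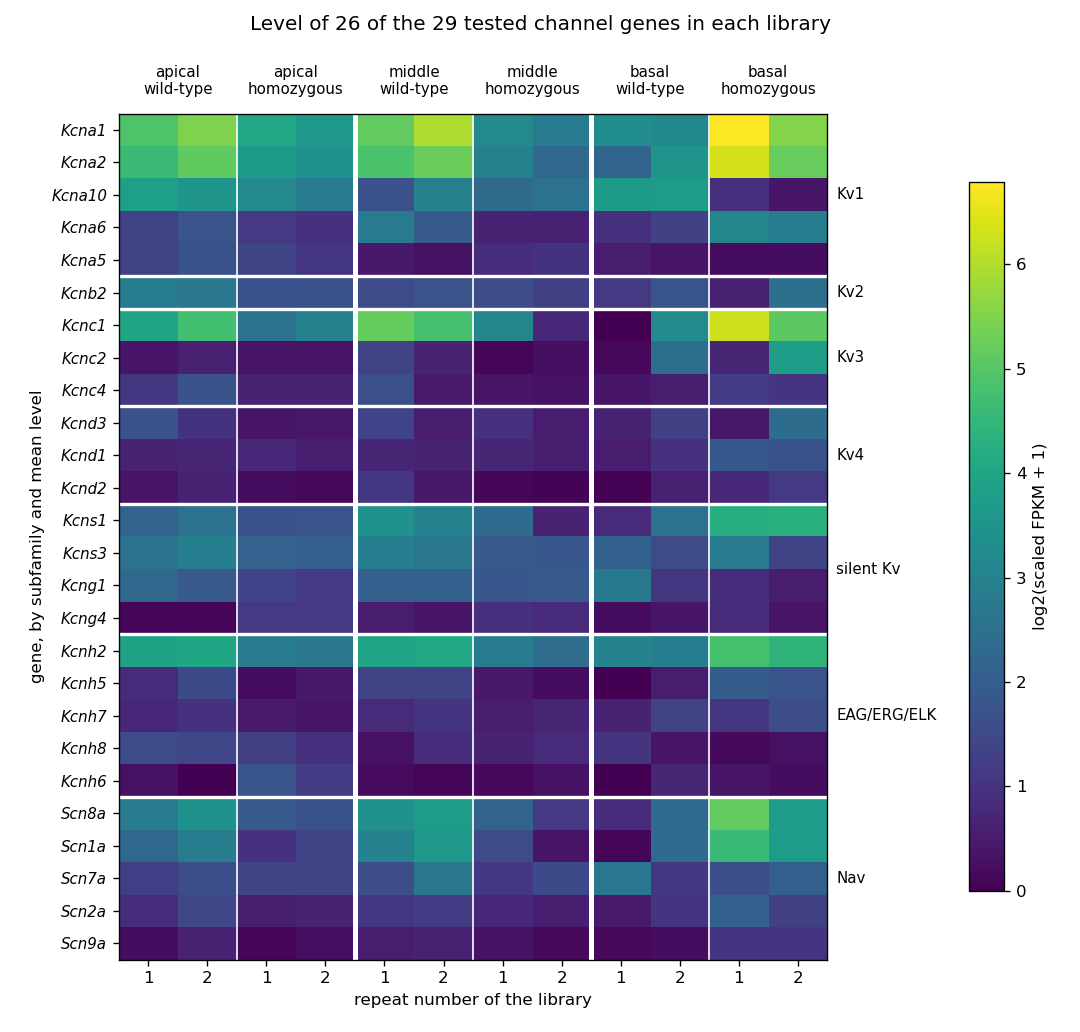
Level of 26 of the 29 tested channel genes (rows, by subfamily and mean level) in each of the 12 libraries (columns, by turn, genotype and repeat number), as log2 of scaled FPKM plus 1 in color. *Kcna1*, *Kcna2* and *Kcnc1* are the brightest rows, and they are brightest in the first homozygous basal library, with *Kcna1* at 109 scaled FPKM.

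Summed over the 45 genes, the apical turn held 165 and 220 scaled FPKM in wild-type against 86.5 and 77.9 in homozygous libraries. The middle turn held 225 and 256 in wild-type against 76.3 and 44.96 in homozygous libraries. The basal turn went the other way, with 57.5 and 97.3 in wild-type against 527 and 276 in homozygous libraries. The genotypes thus did not overlap in any turn, and homozygous libraries lay below wild-type ones in the apical and middle turns and above them in the basal turn. This is a description of a sum that the highest genes dominate. The number of the 45 genes listed at 0 was 13 in the first wild-type basal library and between 2 and 7 in the others.

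The question of the first comparison was which channel genes differed between homozygous and wild-type mice in each turn. A gene was called when the p-value of limma, adjusted over all 16215 tested genes, was under 0.01 and the fold change over 2. Fold changes are log2 differences of scaled FPKM plus 1, homozygous minus wild-type, and understate the change of low genes. Of the 29 tested channel genes, 4 passed the filter through a single group. *Kcnd1* and *Scn9a* did so through the homozygous basal libraries, and *Kcng4* and *Kcnh6* through the homozygous apical ones. These are therefore high in the group that let them pass, and counts over the 29 genes include them.

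In the basal turn, 6 channel genes were called. *Kcna1*, *Kcna2*, *Kcna6*, *Kcnh2* and *Kcnh5* rose in homozygous libraries and *Kcna10* fell. Of all tested genes, 2.53% were called higher and 1.76% lower in this turn. *Kcna6* encodes another Kv1 subunit of axons, *Kcnh2* the ERG channel that also repolarizes the heart, and *Kcnh5* a channel of the EAG subfamily. *Kcna10* encodes a Kv1 channel known from hair cells of the inner ear. Fewer cells of a type and less RNA per cell cannot be told apart in these bulk libraries, here and in all results that follow.

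The bases just before a RefSeq start of 5 of these 6 genes are shown to describe how many CG pairs precede them. These genes were chosen by their calls and *Kcna10* alone among them fell, so they cannot link CG pairs to direction. A relation between CG pairs and the direction of change was not tested. Each line gives 120 bases from RefSeq (GRCm38.p6) read 5′ to 3′ on the strand of the gene, with CG pairs in capitals. They are chr3:107101447-107101566 (plus strand) for *Kcna2*, chr6:126740675-126740794 (minus) for *Kcna6*, chr5:24329592-24329711 (minus) for *Kcnh2*, chr12:75177333-75177452 (minus) for *Kcnh5* and chr3:107182936-107183055 (plus) for *Kcna10*. The starts used for *Kcna2* and *Kcnh2* lie inside the genes as the deposited table bounds them, so the bases shown for both are also within the gene. The bases of *Kcna10* end before the start in the deposited table, 87 bases upstream of the RefSeq start.
Kcna2: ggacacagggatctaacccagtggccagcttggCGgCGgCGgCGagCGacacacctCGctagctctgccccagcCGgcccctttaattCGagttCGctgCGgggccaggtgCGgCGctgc
Kcna6: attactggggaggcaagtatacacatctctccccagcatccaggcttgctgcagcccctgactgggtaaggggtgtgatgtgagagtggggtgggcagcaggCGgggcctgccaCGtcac
Kcnh2: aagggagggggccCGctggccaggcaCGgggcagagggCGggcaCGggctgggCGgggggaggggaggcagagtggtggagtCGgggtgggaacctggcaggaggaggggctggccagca
Kcnh5: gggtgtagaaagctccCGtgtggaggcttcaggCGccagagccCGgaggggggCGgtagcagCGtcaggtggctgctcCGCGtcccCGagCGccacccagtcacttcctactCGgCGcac
Kcna10: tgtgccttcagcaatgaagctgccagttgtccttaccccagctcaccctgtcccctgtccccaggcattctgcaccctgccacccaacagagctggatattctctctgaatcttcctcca

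In the 250 bases before the RefSeq start, *Kcna2* held 18 CG pairs, *Kcnh5* 16, *Kcnh2* 14, *Kcna6* 8 and *Kcna10* none. The table holds 38 starts of 32 of the 45 channel genes, *Kcna1* not among them. Over these 38 starts the median was 9 CG pairs (range 0 to 41), and over all 32851 starts in the table it was 6. *Kcna10* was the only channel gene with none, and 7.87% of all starts had none. The letters TATAAA, searched on both strands, occurred before 1 of the 38 starts (*Scn2a*) and before 12.4% of all. CAGCTG, which reads the same on both strands, occurred before 10 of 38 (26.3%) and before 13.0% of all. TTCAGCACC on either strand, the left part of the RE1 motif, was found before *Kcnh6* alone and before 0.301% of all. Matches of this kind describe the letters in the window and nothing about what binds there.

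*Kcna1* (ENSMUSG00000047976.4, chromosome 6 from 126640397 to 126644813, minus strand, GRCm38) had 8.81 and 7.95 scaled FPKM in wild-type against 109 and 44.7 in homozygous basal libraries (limma log2 fold change 2.92, SE 0.42, adjusted p = 0.00591). In the apical turn it had 29.3 and 43.4 in wild-type against 15.4 and 11.3 in homozygous libraries, and in the middle turn 34.4 and 61.4 against 8.201 and 5.91. The wild-type libraries were thus the higher ones in these turns and the lower ones in the basal turn, with no overlap in any. The apical log2 fold change was −1.37 (adjusted p = 0.171) and the middle one −2.56 (adjusted p = 0.0268), and neither was called.

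*Kcna2* (ENSMUSG00000040724.5, chromosome 3 from 107101146 to 107115005, plus strand) followed the same order of groups. It had 3.64 and 10.5 scaled FPKM in wild-type against 79.9 and 36.0 in homozygous basal libraries (limma log2 fold change 2.90, SE 0.49, adjusted p = 0.00812). Apical levels were 23.7 and 33.8 in wild-type against 11.9 and 9.72 in homozygous libraries, and middle levels were 27.98 and 37.2 against 6.90 and 3.79. Again no turn showed an overlap of genotypes. The log2 fold changes of −1.32 in the apical turn (adjusted p = 0.233) and −2.44 in the middle turn (adjusted p = 0.0399) were not called.

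*Kcna6* (ENSMUSG00000038077.7, chromosome 6 from 126708332 to 126740674, minus strand) was lower in level than its neighbor *Kcna1*. Its basal values were 0.904 and 1.42 in wild-type against 7.55 and 6.37 in homozygous libraries (limma log2 fold change 1.89, SE 0.30, adjusted p = 0.00734). In the middle turn, 6.10 and 2.81 in wild-type stood against 0.567 and 0.531 (log2 fold change −1.75, adjusted p = 0.0285), which was not called. The apical values, 1.48 and 2.31 against 1.18 and 0.966, lay closest to each other. An antisense transcript, *Gm26673*, shares 2355 of the 5945 exonic bases of *Kcna6* and reached 3.75 FPKM, and the sources used here do not say whether strand was used in counting.

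The *Kcnh2* gene (ENSMUSG00000038319.14, chromosome 5 from 24319589 to 24351604, minus strand) had the smallest basal p-value of the channel genes. It had 7.27 and 6.67 scaled FPKM in wild-type against 26.9 and 20.1 in homozygous basal libraries (limma log2 fold change 1.61, SE 0.18, adjusted p = 0.00317). Repeats lay near each other in every group. Apical values were 14.0 and 14.8 in wild-type against 6.14 and 5.40 in homozygous libraries (log2 fold change −1.19, adjusted p = 0.0248). Middle values were 14.6 and 15.7 against 5.86 and 4.39 (log2 fold change −1.41, adjusted p = 0.0135). Neither was called, since both adjusted p-values missed 0.01.

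*Kcnh5* (ENSMUSG00000034402.3, chromosome 12 from 74897220 to 75177332, minus strand) was listed at 0 in the first wild-type basal library and at 0.428 in the second. It had 3.02 and 2.31 in the homozygous basal libraries (limma log2 fold change 1.61, SE 0.29, adjusted p = 0.00894). In the apical turn 0.779 and 1.89 in wild-type stood against 0.168 and 0.382, and in the middle turn 1.61 and 1.63 against 0.376 and 0.160, where the log2 fold change was −1.05 (adjusted p = 0.0700). As with *Kcna1* and *Kcna2*, the wild-type libraries were the higher ones outside the basal turn.

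*Kcna10* (ENSMUSG00000042861.7, chromosome 3 from 107183056 to 107195721, plus strand) lies next to *Kcna2* but went the opposite way. Its scaled FPKM was 11.9 and 12.2 in wild-type against 0.877 and 0.333 in homozygous basal libraries (limma log2 fold change −3.04, SE 0.38, adjusted p = 0.00456). Apical levels were 13.5 and 10.3 in wild-type against 8.16 and 5.87 in homozygous libraries, with no overlap. In the middle turn the genotypes overlapped, with 2.22 and 6.96 against 4.06 and 4.84. Neither difference was called. In the apical turn all 15 markers of hair cells, the sensory cells of the cochlea, were lower in homozygous libraries, with 0 called. They summed to 677 to 685 in wild-type against 353 to 411 in homozygous apical libraries. In the middle turn 14 of the 15 were higher in homozygous libraries and 1 lower. Markers of several cell types were lower with *Kcna10* in the homozygous basal turn. Of 12 supporting cell markers 10 were lower (2 called) and 2 higher, and of 7 markers of spiral ligament fibrocytes 6 were lower and 1 higher. All 15 hair cell markers were lower in homozygous basal libraries and 4 were called, with sums of 191 to 204 in wild-type against 27.9 to 36.1 in homozygous libraries. *Otof*, the synaptic protein of inner hair cells, had 32.2 and 20.7 against 0.0982 and 0.109, and *Pou4f3*, a transcription factor of hair cells, had 13.3 and 7.77 against a listed 0 and 0.439. The part of hair cells or of other cells in the fall of *Kcna10* was not tested.

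**Figure D2:**
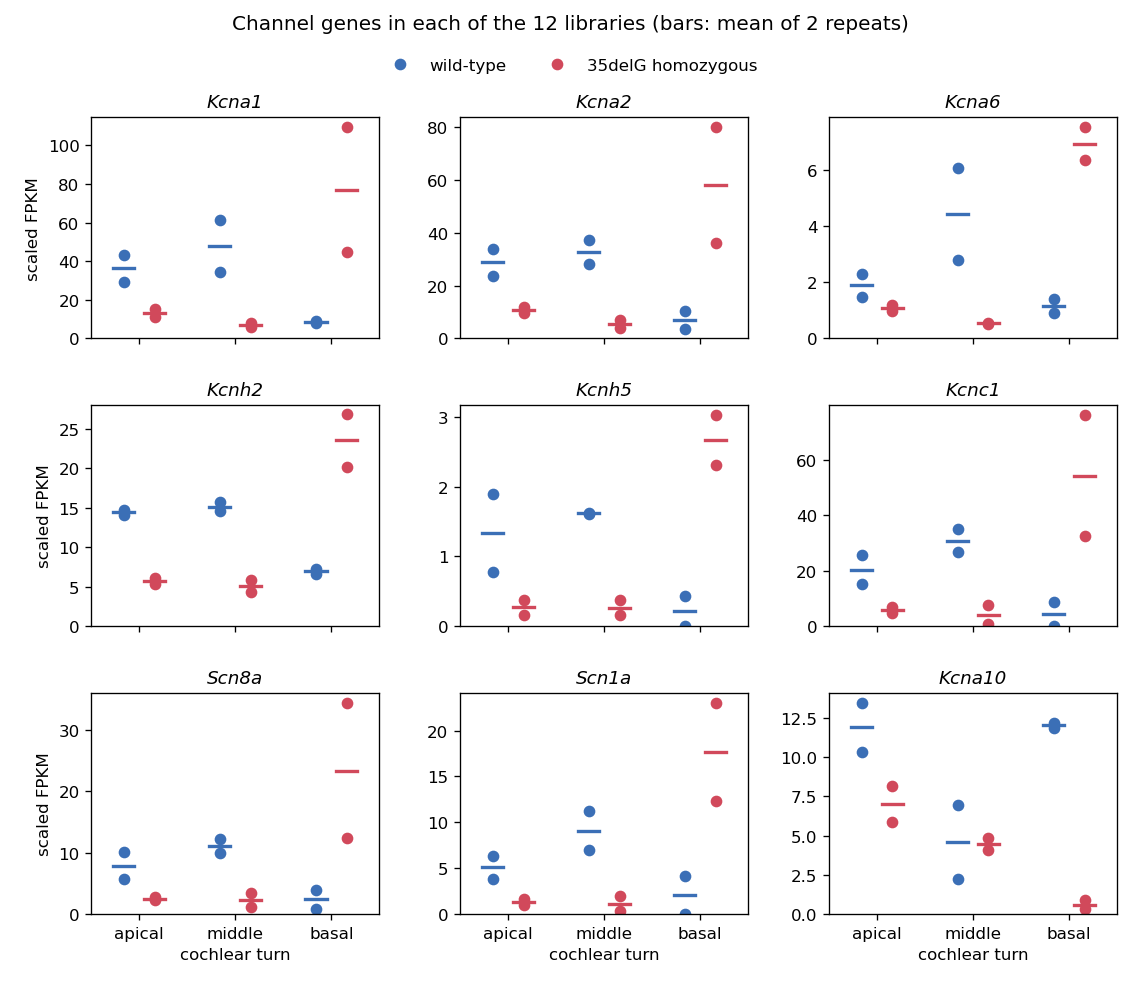
Scaled FPKM of 9 channel genes in each of the 12 libraries by turn (points, blue for wild-type and red for 35delG homozygous, bars for the mean of the 2 repeats, each panel with its own scale). *Kcna1*, *Kcna2*, *Kcna6*, *Kcnh2*, *Kcnh5*, *Kcnc1*, *Scn8a* and *Scn1a* have their highest mean in the homozygous basal group, where *Kcna10* lies lowest at 0.877 and 0.333.

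Several genes with large basal differences did not pass the threshold, and their repeats lay far apart. *Kcnc1* (chromosome 7 from 46396497 to 46438704, plus strand) was listed at 0 in the first wild-type basal library and had 8.74 in the second, against 75.9 and 32.6 in the homozygous ones. This was the largest fitted basal difference of the 29 genes, at 4.03 (standard error 1.03, adjusted p = 0.0288 from limma). Its apical values were 15.3 and 25.6 against 4.88 and 6.99 (log2 fold change −1.60, adjusted p = 0.485), and its middle values 35.1 and 26.6 against 7.58 and 0.728 (log2 fold change −3.04, adjusted p = 0.113). Lower levels were seen for *Kcnc2*, which stayed at or below 1.53 in 10 libraries but had 4.48 in the second wild-type and 12.7 in the second homozygous basal library, and for *Kcnc4*, which reached at most 2.24.

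Among the sodium channels, *Scn8a* and *Scn1a* were the highest, and none was called between genotypes within a turn. *Scn8a* (chromosome 15 from 100870683 to 101045938, plus strand), the main sodium channel of mature nodes, had 0.821 and 3.99 scaled FPKM in wild-type against 34.4 and 12.3 in homozygous basal libraries (limma log2 fold change 2.85, adjusted p = 0.0139). Its apical values were 5.78 and 10.05 against 2.80 and 2.28 (log2 fold change −1.29, adjusted p = 0.315) and its middle values 9.89 and 12.2 against 3.43 and 1.22 (log2 fold change −1.94, adjusted p = 0.0891). The groups were ordered as for *Kcna1*, with no overlap within a turn.

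*Scn1a* (chromosome 2 from 66270781 to 66440837, minus strand), another neuronal sodium channel, had 0.0669 and 4.16 in wild-type against 23.0 and 12.4 in homozygous basal libraries (limma log2 fold change 2.93, adjusted p = 0.0227). Apical values were 3.84 and 6.36 against 0.957 and 1.65 (log2 fold change −1.39, adjusted p = 0.365), and middle values 7.001 and 11.2 against 1.97 and 0.291 (log2 fold change −2.33, adjusted p = 0.0876). *Scn2a*, which shares its region of chromosome 2, had at most 3.32. *Scn9a*, the sodium channel of peripheral sensory neurons, had 0.120 and 0.179 in wild-type against 1.01 and 1.02 in homozygous basal libraries (log2 fold change 0.81, adjusted p = 0.0329), the only libraries in which it reached 1. The antisense *Gm13629*, which had up to 18.5 FPKM, shares 180 of the 12772 exonic bases of *Scn9a*.

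The order was another for *Scn7a*, which encodes an atypical sodium channel that also occurs in glia. It exceeded 1 in every library, with 1.41 and 2.07 in wild-type against 1.62 and 1.63 in homozygous apical, 2.06 and 5.43 against 1.15 and 1.86 in middle, and 5.34 and 1.16 against 2.08 and 3.05 in basal libraries. Its genotypes overlapped in the apical and basal turns.

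The silent subunits, which form no channel alone and modify Kv2 channels, were led by *Kcns1* and *Kcns3*. *Kcns1* had 0.782 and 4.83 in wild-type against 17.7 and 19.4 in homozygous basal libraries (limma log2 fold change 2.60, adjusted p = 0.0219). It had 3.49 and 4.83 against 2.27 and 2.31 in the apical and 9.75 and 6.88 against 4.17 and 0.555 in the middle turn (log2 fold change −1.70, adjusted p = 0.130). Within each turn *Kcns1* thus had the direction of *Kcna1*. *Kcns3* varied less, between 1.64 and 6.63 over the 12 libraries. *Kcng1* had 5.64 and 1.16 in wild-type against 0.849 and 0.456 in homozygous basal libraries (log2 fold change −1.21, adjusted p = 0.0890). *Kcng4* had 0.0641 and 0.0680 against 1.18 and 1.23 in the apical turn (limma log2 fold change 1.05, adjusted p = 0.0695). It passed the filter only through these homozygous libraries.

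*Kcnh6*, the ERG gene related to *Kcnh2*, was high in the homozygous apical libraries alone, through which it passed the filter. It had 2.40 and 1.33 there against 0.237 and a listed 0 in wild-type (limma log2 fold change 1.34, adjusted p = 0.0818), and at most 0.664 in the other turns. *Kcnb2*, which encodes a Kv2 delayed rectifier, stood at 6.41 and 5.40 against 2.30 and 2.26 in the apical turn (log2 fold change −1.07, adjusted p = 0.343). In the middle turn it had 1.96 and 2.33 against 1.99 and 1.42 and in the basal turn 1.21 and 2.41 against 0.503 and 4.66, so that the genotypes overlapped. The Kv4 genes carry the fast-inactivating A-type current. Their highest, *Kcnd3*, had 2.28 and 0.993 against 0.329 and 0.359 in the apical, 1.59 and 0.442 against 0.943 and 0.425 in the middle and 0.582 and 1.44 against 0.364 and 4.25 in the basal turn. *Kcnd1* had 0.433 and 0.974 against 2.66 and 2.26 in the basal turn (limma log2 fold change 1.04, adjusted p = 0.0139). It passed the filter only through these homozygous libraries.

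**Figure D3:**
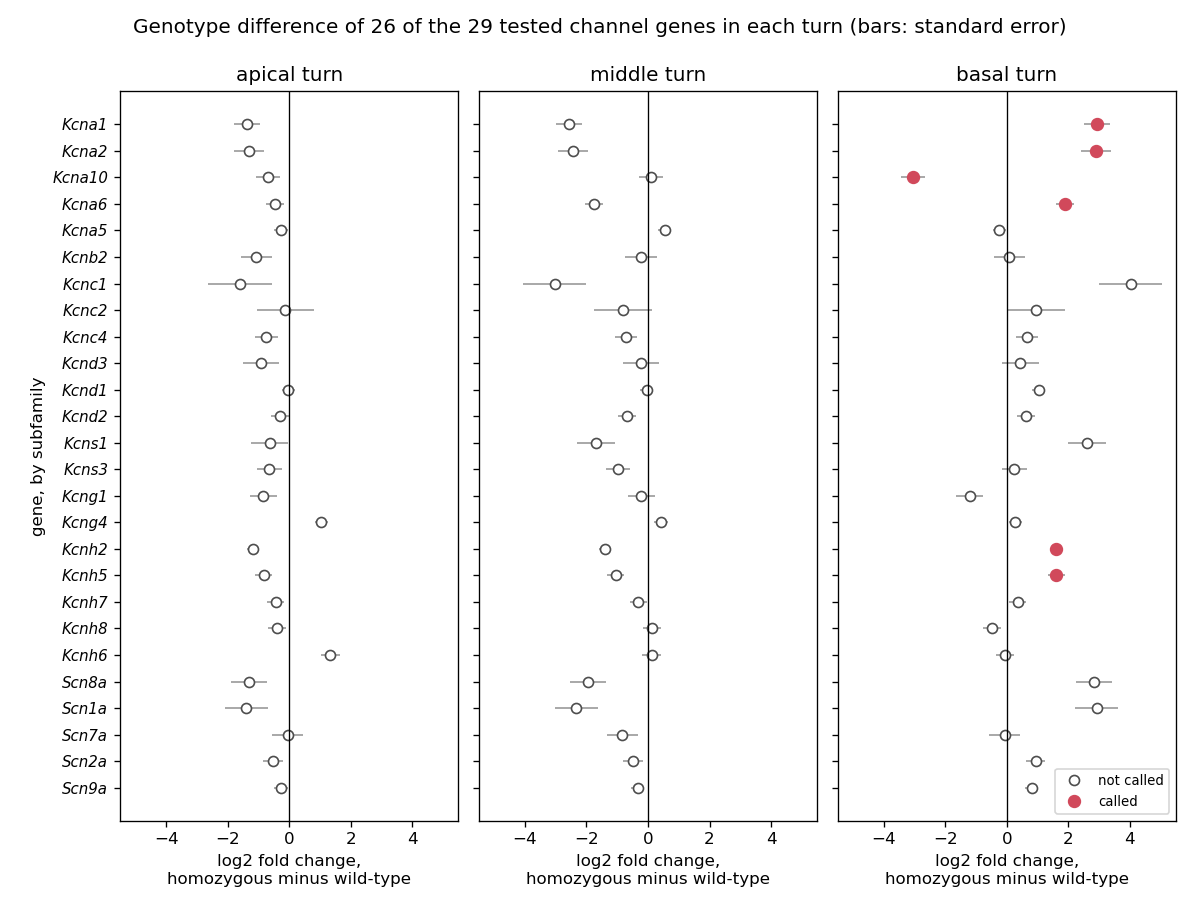
Fitted log2 fold change (homozygous minus wild-type, scaled FPKM plus 1) of 26 of the 29 tested channel genes in each turn, with its standard error as a bar, and filled red points for called genes. Most points lie left of 0 in the apical and middle turns, where no gene was called, and right of 0 in the basal turn, where 5 genes were called higher and *Kcna10* lower.

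Over the 29 tested genes, 23 were higher and 6 lower in homozygous basal libraries, with a median log2 fold change of 0.65 (−0.02 over all 16215 tested genes). For 15 of them the homozygous pair of libraries lay above the wild-type pair and for 4 below, compared with 26.2% and 27.8% of all tested genes. The genes counted as higher include *Kcnd1* and *Scn9a*, which passed the filter only through the homozygous basal libraries. By subfamily, the basal medians were 1.89 for the 5 tested Kv1, 2.33 for the 4 Kv3, 0.88 for the 6 sodium channel, 0.62 for the 3 Kv4, 0.36 for the 5 EAG, ERG and ELK, 0.26 for the 4 silent and 0.15 for the 2 Kv2 genes. The calls lay in Kv1 (3 higher, 1 lower) and in the EAG, ERG and ELK group (2 higher).

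The count of 6 rested on particular libraries and settings. It was 0 without the first or the second wild-type apical library, without the first wild-type basal or without the first homozygous basal library, and 1 without either homozygous apical library. Without the first or the second homozygous middle library it was 3 and 2, without the second homozygous basal library 2, and without either wild-type middle library 4. It was 13 without the second wild-type basal library, and also 13 when the first wild-type middle library was left out with it. A fit to the 4 basal libraries alone gave 0. The direction of each of the 6 genes was kept in all 20 alternatives. The genotypes did not overlap in the basal turn for any of the 6, so leaving out a library could hardly turn it. Which genes were called did change. *Kcnd1*, which passed the filter only through the homozygous basal libraries, was among the genes called in some alternatives. Without a filter *Kcnh2* alone stayed called, and with a replicate block *Kcna10* and *Kcnh2*. Shares over all tested genes are not given for the alternatives, so their counts are no result about channel genes in particular.

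In the apical turn, none of the 29 genes was called by limma, and 7 had an unadjusted p under 0.05, 3 of them higher and 4 lower in homozygous libraries. Such a p was also found for 2663 of all 16215 tested genes, 1198 of them higher and 1465 lower. Of all tested genes, 0.0987% were called higher and 0.0802% lower. With 4 genes higher and 25 lower, the median log2 fold change was −0.64 (−0.03 over all tested genes). For 4 genes the homozygous pair was above the wild-type pair and for 21 below, compared with 26.9% and 32.1% of all tested genes. The genes counted as higher include *Kcng4* and *Kcnh6*, which passed the filter only through the homozygous apical libraries. The lowest subfamily median was that of Kv3, at −1.11.

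The middle turn likewise gave no call by limma, and 14 genes had an unadjusted p under 0.05, 2 of them higher and 12 lower. Such a p was also found for 4118 of all 16215 tested genes, 2098 of them higher and 2020 lower. Here 0.0802% of all tested genes were called higher and 0.0987% lower. Of the channel genes 7 were higher and 22 lower, with a median of −0.69 (0.04 over all tested genes). The libraries did not overlap for 3 genes that were higher and 19 that were lower, compared with 31.3% and 28.2% of all tested genes. The medians of Kv1 and Kv3 were −1.75 and −1.71.

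The next comparison asked whether the genotype difference itself differed between turns, by limma's test of the difference. In the paper, cochleae were cut into these turns, so libraries of different turns may share cochleae. The labels do not mark which, and the fit treated all 12 libraries as independent. Between the basal and middle turns 10 genes were called. Among them, the difference was larger in the basal turn for *Kcna1* by 5.48 (standard error 0.60, adjusted p = 0.00200), *Kcna2* by 5.34 (0.69, adjusted p = 0.00275), *Scn1a* by 5.27 (0.99, adjusted p = 0.00721) and *Scn8a* by 4.79 (0.83, adjusted p = 0.00534) on the log2 scale. *Kcns1* (4.30), *Kcna6* (3.64), *Kcnh2* (3.01) and *Kcnh5* (2.66) went the same way. *Kcna10* alone was called in the opposite direction, at −3.15 (standard error 0.54, adjusted p = 0.00530). *Kcnc1* had the highest value, 7.06, but an adjusted p of 0.0104. Over all tested genes, 6.33% were called larger and 2.58% smaller in the basal turn, and the median was 1.22 for the channel genes and −0.12 for all.

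Between the basal and apical turns 2 genes were called, *Kcna1* at 4.29 (standard error 0.60, adjusted p = 0.00927 from limma) and *Kcnh2* at 2.79 (standard error 0.25, adjusted p = 0.00394). Of all tested genes, 0.537% were called larger and 0.259% smaller. A further 9 channel genes had an adjusted p between 0.01 and 0.05, *Kcna10* at −2.35 (adjusted p = 0.0276) and the others above 0, with *Kcnc1* at 5.63 (adjusted p = 0.0388) the largest. Of all tested genes, 2020 had an adjusted p under 0.05 by limma. Between the middle and apical turns, limma called none of the 29 genes and none of all tested genes (0.0% larger and 0.0% smaller). An unadjusted p under 0.05 was found for 3 channel genes and for 1306 of all tested genes. The genotype differences of these 2 turns were thus not shown to differ.

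These counts moved with single libraries too. Shares over all tested genes are not given for these fits either. The count between the basal and middle turns ranged from 4 to 12 with 1 library left out, at 4 without the first wild-type middle, the second homozygous middle or the first homozygous basal library, at 5 without any of the 4 apical libraries or the second wild-type middle library, and at 6 without the second homozygous basal library. *Kcna1*, *Kcna2*, *Kcna6* and *Kcnh2* were among the genes called in each of these. Between the basal and apical turns it was 10 without the second wild-type basal library, 0 without any 1 of the 4 apical or 4 middle libraries, and 1 without the first wild-type or the first homozygous basal library.

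Along the wild-type cochlea, limma called no channel gene. In the middle against the apical turn 4 genes had an unadjusted p under 0.05, as did 3219 of all tested genes. Called were 0.0% of all tested genes higher and 0.0863% lower. In the basal against the apical turn 11 had such a p, all lower in the basal turn. It was found for 3297 of all tested genes, 1963 of them lower, and 0.0308% and 0.0555% were called. In the basal against the middle turn 12 had such a p, 11 of them lower. It was found for 2472 of all tested genes, 1515 of them lower, and 0.0% and 0.0% were called. The medians over the channel genes were 0.10, −0.42 and −0.38. *Kcnc1* had the largest value, −3.34 in the basal against the middle turn (adjusted p = 0.177), where *Kcna1* had −2.33 (adjusted p = 0.108) and *Kcna10* 1.36 (adjusted p = 0.154). These contrasts share libraries with each other and with the genotype comparisons.

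The partners of the channels were described by lists. Of 14 tested auxiliary subunits of Kv channels, limma called 2 higher in the homozygous basal turn. *Kcnab3*, a beta subunit of Kv1 channels, had 1.43 and 3.31 in wild-type against 23.7 and 13.6 in homozygous libraries (log2 fold change 2.55, adjusted p = 0.00528). *Kcnip2*, which binds Kv4 channels, had 0.391 and 1.34 against 21.4 and 15.6 (log2 fold change 3.42, adjusted p = 0.00805). In the apical turn *Kcne4*, an inhibitory subunit of Kv1 channels, had 0.213 and 0.212 against 14.6 and 19.7 (log2 fold change 3.89, adjusted p = 0.00344), and *Dpp10*, a Kv4 partner, 0.109 and 0.148 against 3.91 and 2.83 (log2 fold change 1.94, adjusted p = 0.00824). Both were called there, while no Kv4 gene was. Of the 14 genes, 4 were higher and 10 lower in the homozygous apical turn, 5 higher and 9 lower in the middle and 8 higher and 6 lower in the basal turn, with medians of −0.36, −0.71 and 0.26. *Kcne1*, which encodes the small subunit of the potassium channel of strial marginal cells, had a listed 0 and 0.151 against 36.0 and 121 in the apical, 0.431 and a listed 0 against 47.0 and 68.9 in the middle, and a listed 0 and 60.8 against 35.9 and a listed 0 in the basal turn. All 8 markers of these cells, the epithelium that secretes potassium into the endolymph, were higher in homozygous libraries in the apical and middle turns, none of them called. They summed to 242 and 247 against 512 and 1158 in the apical and to 276 and 237 against 615 and 801 in the middle turn. The part of strial tissue in the values of *Kcne1* was not tested.

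None of the 8 sodium channel partners was called in any turn by genotype. *Scn4b*, a beta subunit, had 0.120 and 9.74 in wild-type against 94.0 and 51.5 in homozygous basal libraries (limma log2 fold change 4.35, adjusted p = 0.0188). It thus lay higher in homozygous basal libraries, as *Scn8a* did. The median of this list was −0.40, −0.63 and 0.99 from the apical to the basal turn.

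All 16 genes listed for proteins that anchor channels at nodes, juxtaparanodes and initial segments were tested, as RNA. Of these genes, 14 were lower in the homozygous apical, 15 lower in the middle and 15 higher in the basal turn, with medians of −0.76, −1.51 and 2.17. Limma called 3 in the basal turn and none in the others. *Cntnap1*, the paranodal adhesion protein, had 2.61 and 5.85 in wild-type against 33.8 and 17.2 in homozygous libraries (log2 fold change 2.34, adjusted p = 0.00663). *Gldn*, which Schwann cells release at nodes, had 3.15 and 3.37 against 50.4 and 24.6 (3.09, adjusted p = 0.00528), and *Dlg2*, a scaffold that binds Kv1 channels, had 2.56 and 4.47 against 29.9 and 11.9 (2.18, adjusted p = 0.00932). Most anchors thus had the directions of *Kcna1* and *Kcna2* in each turn.

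Of 24 tested potassium and HCN channel genes outside the 45, limma called 3 higher and 1 lower in the homozygous basal turn and none in the others. Among these, *Kcnt1*, a sodium-activated potassium channel, had 1.35 and 3.23 against 13.7 and 16.4 (log2 fold change 2.35, adjusted p = 0.00487), and *Kcnk1*, a background channel, 32.5 and 35.3 against 91.3 and 75.7 (1.27, adjusted p = 0.00932). *Kcnj16*, an inward rectifier, had 128 and 47.9 against 6.14 and 1.501 (−4.24, adjusted p = 0.00462).

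Markers of nerve tissue moved with the channel genes. The 19 markers of spiral ganglion neurons summed to 1522 and 2124 in wild-type against 393 and 782 in homozygous apical libraries, to 3219 and 4094 against 778 and 162 in the middle turn, and to 119 and 1365 against 4826 and 5495 in the basal turn. They were lower in homozygous libraries for 17 of 19 genes in the apical and 17 of 19 in the middle turn, and higher for 18 of 19 in the basal turn, with none called by limma. In the first wild-type basal library 2 of the 19 were listed at 0, and *Snap25*, a protein of synaptic vesicle release, had 2.17 there and 158 in the second. Within each turn the sums thus had the direction of the summed channel genes.

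The 15 markers of Schwann cells and myelin summed to 2973 and 3172 against 1875 and 2453 in the apical, to 21038 and 6470 against 957 and 973 in the middle and to 1786 and 5967 against 9966 and 15682 in the basal turn. None of the 15 was listed at 0 in any library. Limma called 2 of them lower in the homozygous middle and 6 higher in the homozygous basal turn. Central glia markers summed to 82.3 and 484 in wild-type against 514 and 791 in homozygous basal libraries, and to between 43.8 and 74.5 in all apical and homozygous middle libraries. The amount of nerve in a piece of cochlea and the level of the channel genes in a neuron were not separated, and the part of nerve tissue in the results was not tested.

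**Figure D4:**
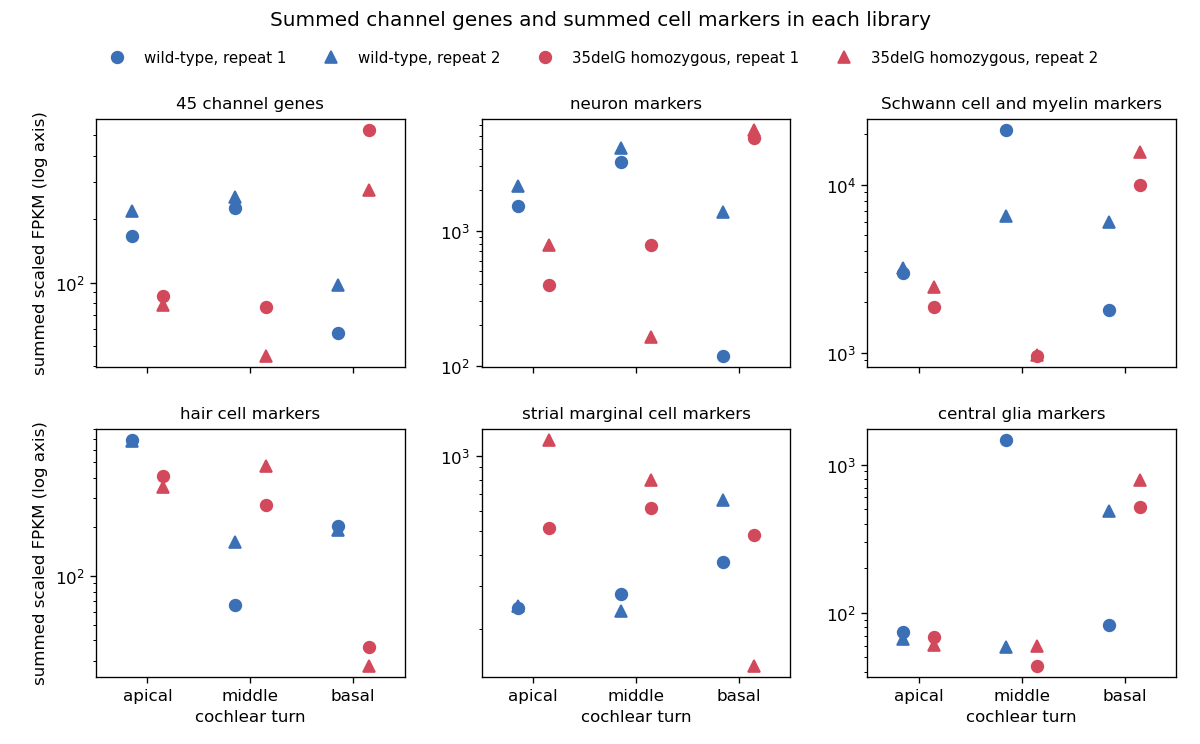
Summed scaled FPKM (log axis, each panel with its own range) of the 45 channel genes and of 5 lists of cell markers in each of the 12 libraries by turn, with wild-type in blue, 35delG homozygous in red, and circles and triangles for the first and second repeat. Channel genes and neuron markers are lower in homozygous libraries outside the basal turn and higher within it, whereas hair cell markers are lowest in the homozygous basal libraries, at 36.1 and 27.9.

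The position of the genes was compared last. *Kcna1*, *Kcna5* and *Kcna6* lie side by side on chromosome 6, and *Kcna2*, *Kcna3* and *Kcna10* on chromosome 3. In the homozygous basal turn the chromosome 6 group held 2 genes called higher, while *Kcna5* had 0.458 and 0.291 in wild-type against 0.159 and 0.167 in homozygous libraries. The chromosome 3 group held 1 called higher (*Kcna2*), 1 called lower (*Kcna10*) and *Kcna3*, which was not tested. *Scn1a*, *Scn2a*, *Scn3a*, *Scn7a* and *Scn9a* lie on chromosome 2 between 65457118 and 66784914, and their levels ranged from at most 0.597 for *Scn3a* to 23.0 for *Scn1a*. Neighbors thus differed in direction on chromosome 3 (*Kcna2* and *Kcna10*). On chromosome 6 the 2 called went the same way, and *Kcna5*, which was not called, went the other way. Of the 45 identifiers, 43 were in the GENCODE annotation used here, and 8 of these genes share exonic bases with another gene, 6 of them tested, among which *Kcnh7* shares 696 bases with *Gca*.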

How the data were processed

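Total RNA was extracted by the authors with the miRNeasy Micro Kit, and libraries of a VAHTS Universal V8 kit were sequenced on a NovaSeq as 150 bp pairs. Reads were trimmed with fastp 0.20.0 and aligned to mm10 with STAR 2.7.3a. The authors deposited FPKM values from StringTie 2.0, the unit used here. Depth per library and use of strand are not given in the sources used here. No column of values was left unassigned (0).

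Scaling used median-of-ratios factors computed on 11552 genes that reached 1 FPKM in all 12 libraries. Genes were kept for testing when they reached 1 FPKM in 2 libraries (16215 genes). The values log2(scaled FPKM + 1) entered limma 3.58.1 (R 4.3.3), fitting 1 mean to each of 6 groups with a mean-variance trend (residual degrees of freedom 6, prior 2.78). Tests were two-sided, and p-values were adjusted by Benjamini and Hochberg's method across the tested genes. Calls needed a fold change over 2 with an adjusted p under 0.01, the thresholds the paper states for its own comparison. The paper used DESeq2, so its counts of genes and the calls by limma on FPKM here are not alike. The fit was tested on simulated data in which a gene had the same spread in all libraries. Unequal spread between groups, as found here, was not simulated. Percentages of genes called are over the 16215 tested genes. Figures were drawn with matplotlib 3.10.9 (Python 3.11.15).

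The channel genes, the partner and marker lists and the rules below were chosen with earlier results of these data known. Any channel gene could be named. Values in every library were given for the highest of each subfamily, for every gene called and for *Scn4a*, *Scn7a* and *Kcna10* (for *Scn4a* as a range), and a fold change only where a gene was called, had an adjusted p under 0.05 or a log2 fold change of at least 1 in size. Of list genes, values were given for those called and some of the 3 highest. Some genes covered by these rules are not reported here.

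Alternatives were a pseudocount of 0.1, no filter, FPKM as deposited, quantile normalization, library weights, a replicate block, only the libraries of the groups compared, an adjusted p under 0.05 and each library left out. Leaving out the first wild-type middle with the second wild-type basal library was chosen after seeing the data.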

Additional observations from a re-analysis of the deposited data

Results flagged for a closer look

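For the following 9 channel genes the genotype difference itself was not the same in all turns by limma's test of that difference, at an adjusted p under 0.01. Values are log2 differences of the genotype difference, the basal turn minus the other turn. Against the middle turn they were 5.48 for *Kcna1*, 5.34 for *Kcna2*, 5.27 for *Scn1a*, 4.79 for *Scn8a*, 4.30 for *Kcns1*, 3.64 for *Kcna6*, 3.01 for *Kcnh2*, 2.66 for *Kcnh5* and −3.15 for *Kcna10*. Against the apical turn they were 4.29 for *Kcna1* and 2.79 for *Kcnh2*. Except for *Kcna10*, the homozygous libraries had the lower levels in the apical and middle turns and the higher levels in the basal turn. Both tests use the same basal libraries.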

How the results depend on the processing

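Of 104 log2 fold changes of single channel genes, all kept their direction under the alternatives except that of *Kcnc2* in the difference between the basal and apical turns. It was 1.08, −0.07 without the first wild-type basal library, −0.43 without the second homozygous basal library and up to 2.60 with another library left out. Where the libraries of 2 genotypes do not overlap in a turn, leaving out a library could hardly turn the direction there. The number of called channel genes in the homozygous basal turn was 6, and in the alternatives it was 1 without a filter, 0 with library weights, 0 in a fit to only the libraries compared, 12 at an adjusted p under 0.05 and 0 to 13 with each library left out. For the difference between the basal and apical turns it was 2, and otherwise 1 without a filter, 4 after quantile normalization, 1 with library weights, 0 with only the libraries compared, 11 at an adjusted p under 0.05 and 0 to 10 with each library left out. Between the basal and middle turns it was 10, and otherwise 3 without a filter, 0 with only the libraries compared and 4 to 12 with each library left out. The apical count of 0 became 2 with library weights and 1 at an adjusted p under 0.05, and the middle count of 0 became 1 and 4. Leaving out the first wild-type middle and second wild-type basal libraries together gave 13, 10 and 11 calls for the basal turn and its differences from the apical and middle turns. *Kcnd1*, which passed the filter only through the homozygous basal libraries, was among the basal calls at an adjusted p under 0.05 and in some other alternatives. Shares over all tested genes are not given for the alternatives, so their counts describe the channel genes alone. The cause of the changes in these counts was not tested. Where a group kept 1 library, it was assumed to vary like the other groups.

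The repeat numbers do not mark pairs in the labels, and deviations of same-numbered libraries correlated from −0.43 to 0.45 over the 15 pairs of groups, above 0 in 5. With a replicate block the basal count was 2, that for the basal minus apical difference 0 and that for the basal minus middle difference 5, and the block changed no other count. Depth is unknown, so the precision of low genes rests on the spread between 2 libraries per group, pooled over the groups.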
